A study of Homo sapiens with 56 samples.

Results

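The genes described here encode the subunits of the oxidative phosphorylation complexes of the inner mitochondrial membrane. They were taken by name: probe sets whose only gene symbol in the platform annotation starts with NDUFA, NDUFB, NDUFC, NDUFS, NDUFV, SDH, UQCR, COX4, COX5, COX6, COX7, COX8, ATP5F, ATP5M or ATP5P, without hyphenated symbols and without the NDUFAF assembly factors. This gave 82 of the 19775 genes that could be named by a single symbol, represented by 155 probe sets, and each gene was represented by its probe set of highest average signal. Of the 82 genes, 33 belong to complex I, 3 to complex II, 6 to complex III, 16 to complex IV and 17 to complex V. The other 7 match the names but are not counted as subunits of a complex: the assembly factors SDHAF1, SDHAF2, SDHAF3 and SDHAF4, the supercomplex factor COX7A2L, and the pseudogenes ATP5MC2P1 and COX6A1P1. NDUFA4, SDHB and UQCRFS1 were not analysed here, and NDUFS5, NDUFS8, NDUFC2 and UQCRH share their probe sets with other symbols and were left out by the rule.

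The complexes carry out respiration. Complex I oxidises NADH and complex II oxidises succinate, complex III passes the electrons from ubiquinol to cytochrome c, complex IV reduces oxygen, and complex V, the ATP synthase, uses the resulting proton gradient to make ATP. Most subunits are encoded in the nucleus and a minority of core subunits in mitochondrial DNA. Lymphocytes that are dividing use both glycolysis and respiration.

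The samples were cultures of established human lines of cutaneous T-cell lymphoma (CTCL), a cancer of skin-homing T cells: HuT102, MJ, MY-LA and HuT78. HuT102, MJ and MY-LA cells were harvested at day 4 and day 8, untreated or treated with MRG-106 (cobomarsen), an antisense oligonucleotide that blocks miR-155, and HuT78 cells were harvested at day 8 in the same 2 arms. Each of the 14 groups had 4 arrays, 56 in all. The control was untreated cells; no group analysed here received a control oligonucleotide, so an effect of any oligonucleotide and one of blocking miR-155 cannot be told apart. The concentration is not given in the sources used here, and every arm was diluted at day 4 by the factor that returned the untreated cells to their seeding density. Whether the arrays of a group came from separate cultures is not stated in the labels, and the p-values therefore reflect only the spread among these samples, which may be technical. Of 9 T-cell markers, 9 were above the median signal of the platform (73.98) in untreated HuT102 and MJ cells at day 8. In MY-LA 7 were, with CD4 and LCK below it, and in HuT78 8 were, with CD2 below it. Of 4 epithelial markers, 2 reached that median in HuT78, with KRT5 and KRT14 below it, and 0 in the 3 other lines. Their summed signal was 8731 to 10527 in HuT78 and at most 148 elsewhere. Of 3 B-cell markers, 3 reached it in HuT78 and 1 in each other line. Of 4 myeloid markers, 1 did in HuT78 and 2 in each other line. The probe set for the host transcript of miR-155 read at most 55.2 in HuT78 and 10496 to 32332 in the 3 other lines; MRG-106 acts on the mature microRNA, so that transcript does not check the treatment.

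The deposited signals had been scaled so that the trimmed mean of every array was 500.1. The arrays still differed in shape: the upper quartile of the signal ran from 380 to 466. This bears on the subunit genes, of which 55 lay among the tenth of tested genes with the highest signal. In HuT78, the MRG-106 arrays 2, 3 and 4 stood apart, with upper quartiles of 380, 385 and 382, against 431 on MRG-106 array 1 and 422 to 443 on the untreated arrays. The upper quartile was also higher with MRG-106, without overlap of the groups, in HuT102 at day 8 (449 against 423), MJ at day 4 (437 against 417) and MJ at day 8 (449 against 431). These values are therefore given beside the results they touch, together with a fit that carried the upper quartile of each array as a covariate. That fit used 1 slope per gene over all 14 groups, and the widely spread HuT78 MRG-106 arrays help to set it. Its results, in HuT78 and in the other lines, are thus not independent of the arrays that stood apart. Only the members were kept from that fit. No share or median over all genes was computed for it, so its counts cannot be read against all genes. The member genes were read against all genes tested and against the tenth with the highest signal.

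**Figure D1:**
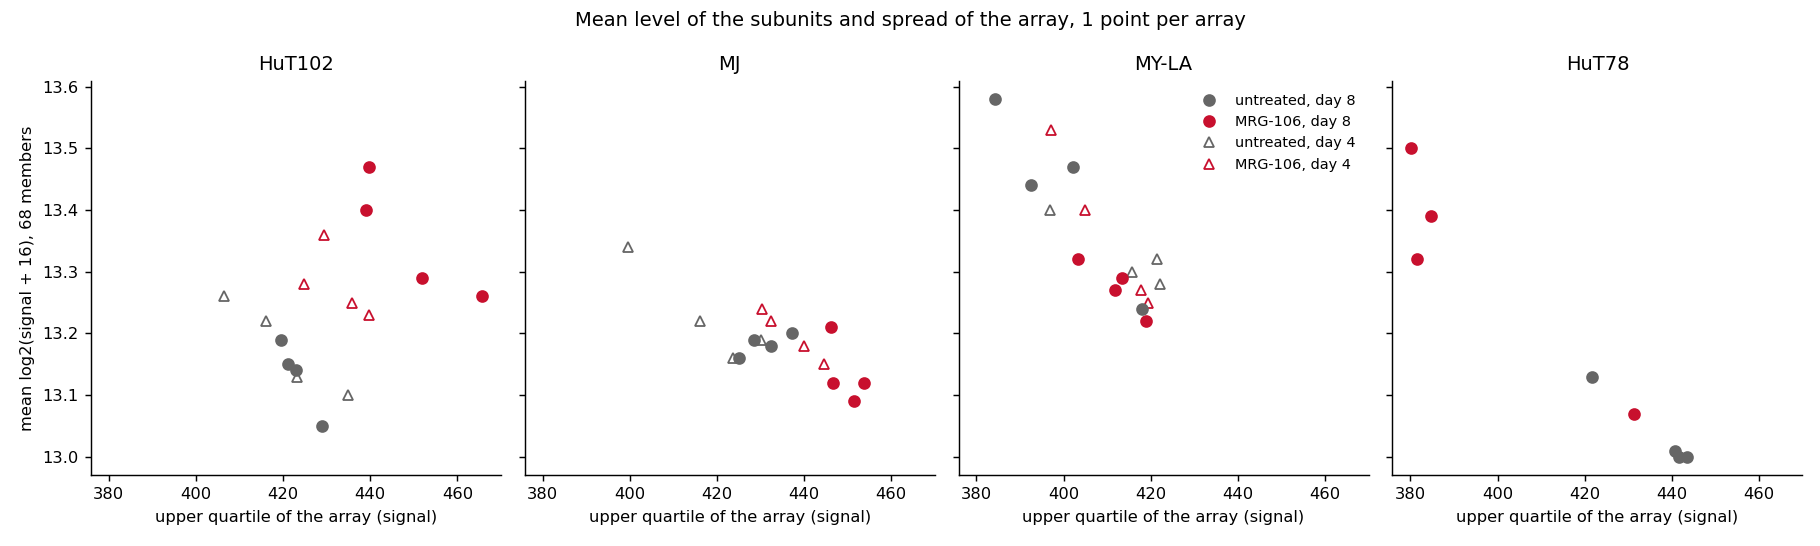
Mean level of the 68 clearly expressed complex subunits on each array (vertical axis, mean log2(signal + 16)) against the upper quartile of that array (horizontal axis, signal), in 1 panel per line. Red points are MRG-106 and grey points untreated arrays, circles day 8 and triangles day 4. In HuT78 the 3 MRG-106 arrays with upper quartiles of 380 to 385 read 13.32 to 13.50, while MRG-106 array 1 read 13.07, within the untreated range of 13.00 to 13.13. In HuT102 at day 8 the MRG-106 arrays were higher on both axes.

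Promoters of 8 members that rose together or moved most, with and without motif matches, are shown for reference, since subunit genes of several complexes changed at once. Each runs 5′ to 3′ on the gene's strand, from 250 bases before to 50 bases after a RefSeq start site (GRCh38.p14). Matches to either orientation of 3 short motifs are in capitals. CCGGAAG is a core bound by ETS factors such as GABPA. CGCANGCG is a core of the nuclear respiratory factor NRF1 site, and AAGATGGC a core bound by YY1. NDUFA1 lies at chrX:119871582-119871881 (plus strand), COX4I1 at chr16:85799445-85799744 (plus), COX6B1 at chr19:35648073-35648372 (plus), UQCR11 at chr19:1605413-1605712 (minus), SDHAF4 at chr6:70566680-70566979 (plus), NDUFA7 at chr19:8321326-8321625 (minus), COX7A2 at chr6:75250249-75250548 (minus) and UQCRC2 at chr16:21953111-21953410 (plus).
NDUFA1: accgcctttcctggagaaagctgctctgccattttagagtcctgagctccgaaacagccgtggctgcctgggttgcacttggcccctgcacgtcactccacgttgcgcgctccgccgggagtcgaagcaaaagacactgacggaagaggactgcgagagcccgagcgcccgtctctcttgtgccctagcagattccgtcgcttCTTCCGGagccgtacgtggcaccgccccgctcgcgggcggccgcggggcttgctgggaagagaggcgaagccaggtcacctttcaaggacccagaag
COX4I1: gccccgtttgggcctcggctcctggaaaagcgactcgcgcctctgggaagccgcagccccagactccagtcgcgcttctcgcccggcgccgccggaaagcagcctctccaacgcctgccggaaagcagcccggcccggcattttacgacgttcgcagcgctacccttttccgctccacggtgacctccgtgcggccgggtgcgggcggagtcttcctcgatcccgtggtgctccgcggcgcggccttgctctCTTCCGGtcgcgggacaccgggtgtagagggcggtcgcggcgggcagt
COX6B1: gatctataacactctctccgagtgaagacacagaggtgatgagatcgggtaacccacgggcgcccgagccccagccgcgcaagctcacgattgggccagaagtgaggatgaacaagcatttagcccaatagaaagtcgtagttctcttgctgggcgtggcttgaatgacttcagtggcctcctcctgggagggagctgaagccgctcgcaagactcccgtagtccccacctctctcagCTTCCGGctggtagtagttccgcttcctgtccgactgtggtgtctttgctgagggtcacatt
UQCR11: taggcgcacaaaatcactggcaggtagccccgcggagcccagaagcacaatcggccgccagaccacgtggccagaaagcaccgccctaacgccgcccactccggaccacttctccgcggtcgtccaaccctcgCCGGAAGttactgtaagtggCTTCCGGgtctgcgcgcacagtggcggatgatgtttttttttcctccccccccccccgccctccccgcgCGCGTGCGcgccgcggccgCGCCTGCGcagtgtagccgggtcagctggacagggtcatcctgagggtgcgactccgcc
SDHAF4: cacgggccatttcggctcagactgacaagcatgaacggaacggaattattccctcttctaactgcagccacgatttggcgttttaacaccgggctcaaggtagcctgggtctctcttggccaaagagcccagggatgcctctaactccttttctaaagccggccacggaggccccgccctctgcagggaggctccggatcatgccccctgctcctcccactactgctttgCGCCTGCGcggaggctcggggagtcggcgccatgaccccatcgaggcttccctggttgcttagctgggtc
NDUFA7: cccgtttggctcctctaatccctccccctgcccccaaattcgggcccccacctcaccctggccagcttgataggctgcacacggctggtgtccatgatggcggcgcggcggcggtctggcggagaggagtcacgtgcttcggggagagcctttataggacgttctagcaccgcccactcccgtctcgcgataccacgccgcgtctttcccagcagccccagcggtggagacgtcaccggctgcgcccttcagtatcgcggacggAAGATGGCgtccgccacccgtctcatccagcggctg
COX7A2: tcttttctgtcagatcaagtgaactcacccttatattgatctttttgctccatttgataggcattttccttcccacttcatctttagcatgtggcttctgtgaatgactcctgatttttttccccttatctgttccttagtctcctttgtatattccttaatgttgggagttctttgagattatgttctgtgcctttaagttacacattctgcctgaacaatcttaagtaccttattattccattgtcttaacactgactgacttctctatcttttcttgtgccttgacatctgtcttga
UQCRC2: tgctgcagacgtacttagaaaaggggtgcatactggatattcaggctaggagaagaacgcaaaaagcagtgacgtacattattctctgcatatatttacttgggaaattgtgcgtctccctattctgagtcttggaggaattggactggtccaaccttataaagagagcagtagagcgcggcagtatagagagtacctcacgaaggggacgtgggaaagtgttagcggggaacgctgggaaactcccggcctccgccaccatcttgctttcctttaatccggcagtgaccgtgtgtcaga
The NDUFA1, COX4I1 and COX6B1 windows each held 1 ETS match, the SDHAF4 window 1 NRF1 match, the UQCR11 window 2 of each, and the NDUFA7 window 1 YY1 match. The COX7A2 and UQCRC2 windows held none. COX7A2 has 2 start sites in the RefSeq table, and the window of only 1 of them is shown, so its other start is not covered. Among the 69 members with a promoter entry in the RefSeq table, 26 (37.7%) held the NRF1 motif and 20 (29.0%) the ETS motif, against 10.6% and 10.7% of the 27305 genes in the table. The YY1 motif was in 10 members (14.5%) against 3.03% of all genes. The motifs were searched on both strands, and since CCGGAAG ends in the letters that start AAGATGGC, 1 stretch can count for both. Of the members higher in HuT102 at day 8, 36 had an entry, and 12 held the NRF1 and 14 the ETS motif. Of those lower in MY-LA at day 8, 23 had an entry, and 6 held each.

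Of the 82 members, 75 passed the filter on low signal in all 7 comparisons of MRG-106 with untreated cells and 1 (COX6A2) in some of them. ATP5MF, COX6A1P1, COX6B2, COX7A1, COX7B2 and COX8C passed in none, with mean signals of 24.4, 39.0, 58.4, 6.18, 36.3 and 14.6. Several complex IV subunits exist as tissue isoforms. COX4I1 averaged 19287 to 27623 over the 14 groups and COX4I2, its lung form, 104 to 181. COX6A1 averaged 18048 to 28975 and COX6A2, its heart and muscle form, 50.6 to 108. COX7A2 averaged 9558 to 29804, against 2.79 to 14.1 for COX7A1, and COX8A 13614 to 20354, against 2.94 to 37.0 for COX8C. Signals of different probe sets are not on 1 scale, so these values say only which probe sets read near background; COX4I2 was tested in all 7 comparisons and called in none, and COX6A2 was tested in 4.

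HuT102 cells at day 8 gave the broadest rise that did not rest on the arrays standing apart. Under limma with Benjamini-Hochberg adjustment over all genes tested, 42 of 75 members were higher and 2 lower with MRG-106, or 58.7% called. Over all 11661 genes, 40.3% were called, 19.0% higher and 21.3% lower. The members' median log2 change was 0.22, against 0.00 for all genes and 0.00 for the tenth with the highest signal, in which 35 of the 55 members were higher and 1 lower. All 5 complexes took part: 17 of 33 complex I subunits were higher and 1 lower, and higher counts were 3 of 3 in complex II, 4 of 6 in complex III, 9 of 11 in complex IV and 8 of 16 in complex V. The groups of arrays did not overlap in the mean level of any complex. The upper quartile itself was higher with MRG-106 in these arrays. Scaling every array to a common upper quartile left 19 members higher and 5 lower. The median change was then 0.14 for the members and -0.09 for all genes. Carrying the upper quartile as a covariate gave 60 higher and 1 lower, with no share over all genes computed for that fit.

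**Figure D2:**
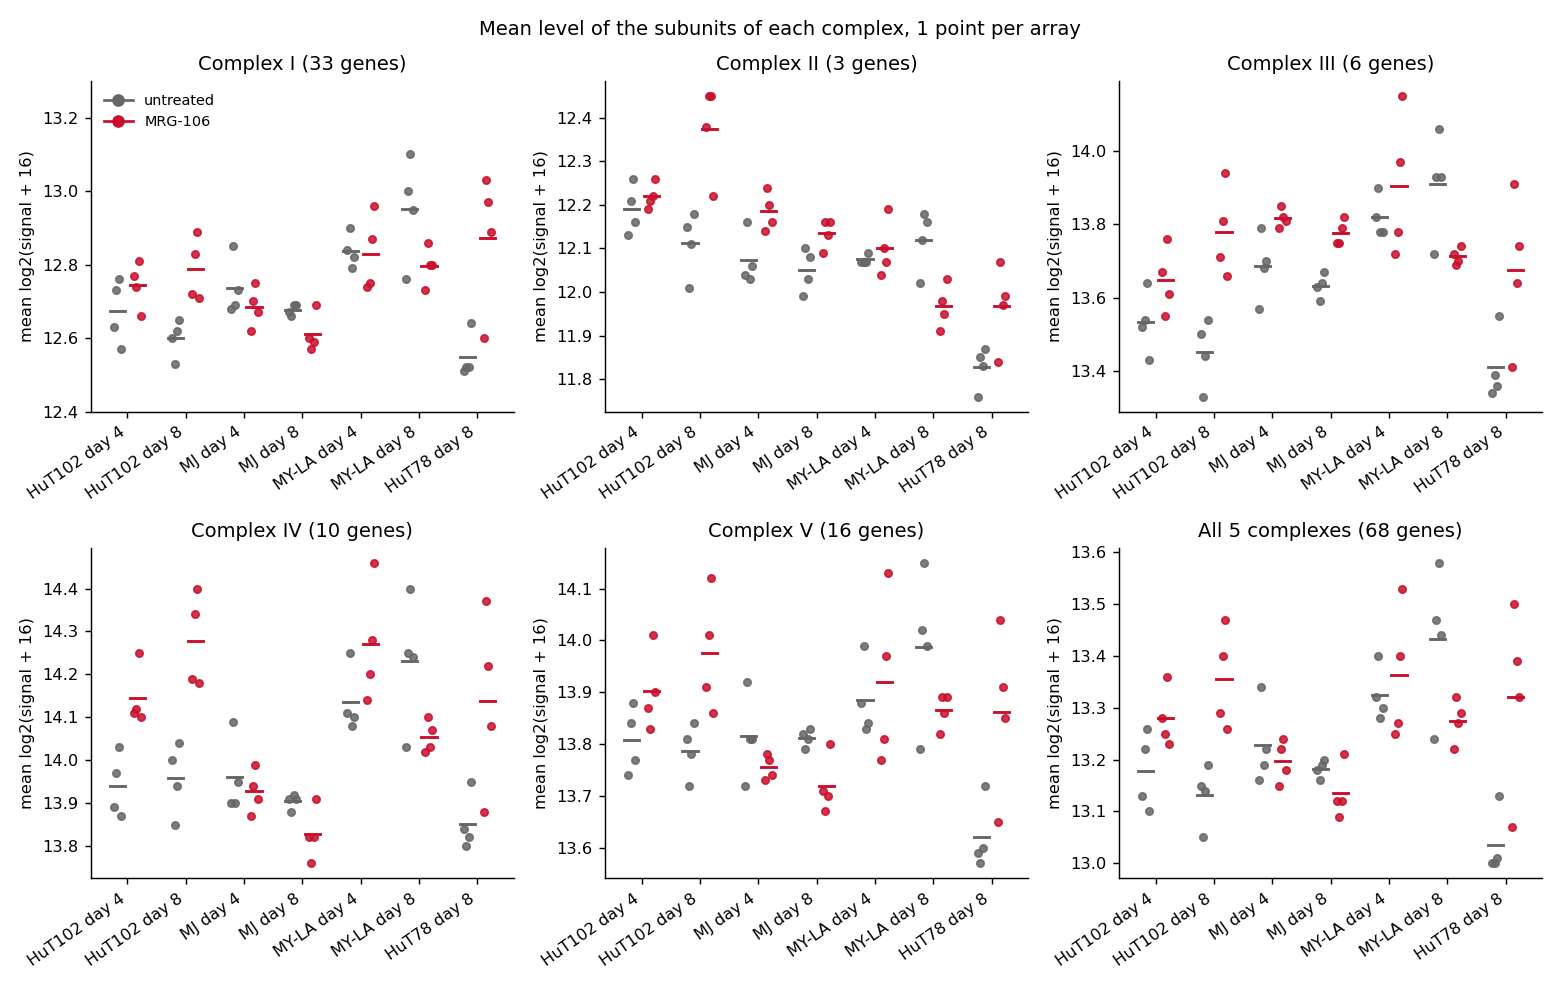
Mean log2(signal + 16) of the clearly expressed subunits of each complex on every array (vertical axis), for untreated (grey) and MRG-106 (red) arrays of the 7 line and day pairs; short bars are means of 4 arrays. HuT102 at day 8 was higher with MRG-106 in each panel without overlap, by 0.19 in complexes I and V and by 0.33 in complex III, while MY-LA at day 8 was lower on average in each.

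UQCRB, a small structural subunit of complex III, changed most among the members that rose. Its signal was 11035, 10784, 11399 and 12141 on the untreated HuT102 arrays at day 8 and 16203, 16923, 20809 and 17360 with MRG-106 (log2 change 0.65 ± 0.10 SE, limma adjusted p = 2.66e-07). The MRG-106 arrays were all above the untreated ones. Both other probe sets for UQCRB were also called higher, by 0.70 and 0.58. Within complex III, UQCR11 (0.46 ± 0.16), UQCR10 (0.39 ± 0.09) and the core subunit UQCRC2 (0.34 ± 0.07) rose as well.

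In complex I, NDUFA1, a membrane-arm subunit encoded on the X chromosome, read 12949, 10223, 10956 and 13318 untreated and 16676, 18685, 18967 and 16662 with MRG-106 (log2 change 0.59 ± 0.11, limma adjusted p = 3.43e-05). All 4 treated arrays were higher than any untreated array. The other complex I genes that rose included NDUFV1 (0.28 ± 0.07), which binds the flavin that accepts electrons from NADH, NDUFS3 (0.32 ± 0.07) of the quinone-reducing module, and NDUFB5 (0.43 ± 0.09) of the membrane arm. NDUFV2, an iron-sulfur subunit that neighbours NDUFV1 in the same module, fell, from 8044, 7851, 7715 and 7817 to 6009, 6711, 6745 and 5356 (log2 change -0.35 ± 0.10, limma adjusted p = 0.00422). Its groups did not overlap, and with the upper quartile as a covariate its change was -0.12 and not called (adjusted p = 0.254).

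In complex IV, COX7B read 13302, 12306, 12917 and 14293 untreated and 17053, 19597, 22179 and 18858 with MRG-106 (log2 change 0.55 ± 0.09, limma adjusted p = 2.78e-06). COX4I1, a nuclear subunit with a regulatory role, went from 20781, 17860, 19238 and 21086 to 25225, 29890, 28781 and 26462, and COX6B1, on the face of the enzyme that meets cytochrome c, from 9584, 8657, 9317 and 10046 to 11901, 13860, 14549 and 12307. In all 3 genes the treated arrays lay above the untreated ones. COX4I1 and COX6B1 each rose by 0.48 on the log2 scale (SE 0.07 and 0.08), a 1.40-fold change.

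In complex II, SDHD, a membrane anchor of succinate dehydrogenase, rose by 0.39 ± 0.10, SDHA, the flavoprotein, by 0.21 ± 0.07 and SDHC, the other anchor, by 0.18 ± 0.07. In complex V, the largest rises were those of ATP5MC1 (0.44 ± 0.08), which encodes the c subunit of the membrane ring, and ATP5ME (0.43 ± 0.07), a subunit e involved in dimer formation. ATP5F1B, the catalytic beta subunit, rose by 0.30 ± 0.08. SDHAF3, an assembly factor of succinate dehydrogenase, was lower, but 1 array set the size of its change. It read 443, 499, 525 and 509 untreated and 438, 347, 345 and 86.8 with MRG-106 (log2 change -0.86 ± 0.24, limma adjusted p = 0.00288). Without MRG-106 array 4 the change was -0.38 and not called, and it was not called in a fit on these 8 arrays alone.

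At day 4 in HuT102, 9 of 75 members were higher and 1 lower (13.3%). Over all genes 23.3% were called, 10.2% higher and 13.1% lower, so the share of members called higher lay near that of all genes. The median change was 0.09, against -0.03 for all genes. Complex IV held 5 of the 9, and its mean level was 13.89, 13.97, 14.03 and 13.87 on the untreated and 14.11, 14.12, 14.25 and 14.10 on the MRG-106 arrays, without overlap. All 9 genes were again higher at day 8: COX4I1, COX5B, COX6B1, COX7B, COX7C, NDUFA1, NDUFA3, NDUFA13 and UQCRB. The share of all genes called higher on both days was not computed. With a common upper quartile 1 member was higher and 2 lower, with the upper quartile as a covariate 39 were higher, and with no filter on low signal 6 were higher and none lower. With a common upper quartile the median change was 0.05 for the members and -0.07 for all genes. Left-out arrays gave 5 called members (without MRG-106 array 3) to 12 (without untreated array 3).

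COX7B led at day 4, with 12657, 14011, 14872 and 12330 untreated and 17004, 17408, 19182 and 16090 with MRG-106 (log2 change 0.37 ± 0.09, limma adjusted p = 0.0021). UQCRB went from 11658, 12878, 13136 and 10919 to 15561, 14856, 16269 and 14358 (0.33 ± 0.10, limma adjusted p = 0.00934). Neither gene's groups overlapped. NDUFA1 rose by 0.31 ± 0.11 (limma adjusted p = 0.0404) with overlapping arrays and lost its call in several alternatives. The 1 member that fell was NDUFC1, a small subunit of the membrane arm of complex I, with 8040, 8410, 8867 and 7810 untreated and 6772, 6859, 7764 and 6928 with MRG-106 (-0.23 ± 0.08, limma adjusted p = 0.0316). Its groups did not overlap, but with no filter on low signal, with the upper quartile as a covariate (-0.14) and without any of 5 single arrays it was not called.

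The difference between the day 8 and the day 4 change in HuT102 was called in 1 of 75 members, against 7.20% of all genes. That gene was ATP5MC1, with a difference of 0.46 ± 0.12. Its day 4 arrays read 3045, 3293, 3468 and 2946 untreated and 3081, 3069, 3296 and 3103 with MRG-106, and the day 8 arrays 2685, 2737, 2830 and 2750 against 3784, 3918, 3888 and 3402. Only the day 8 groups stood apart. The quantile-normalised fit called 10 members and the covariate fit 25, all higher at day 8. Between untreated HuT102 cells of day 8 and day 4, 3 members were lower (SDHD by -0.36, NDUFS1 by -0.25 and UQCRC2 by -0.22), with 8.80% of all genes called, so their rise with MRG-106 at day 8 was measured against a lowered untreated level.

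**Figure D3:**
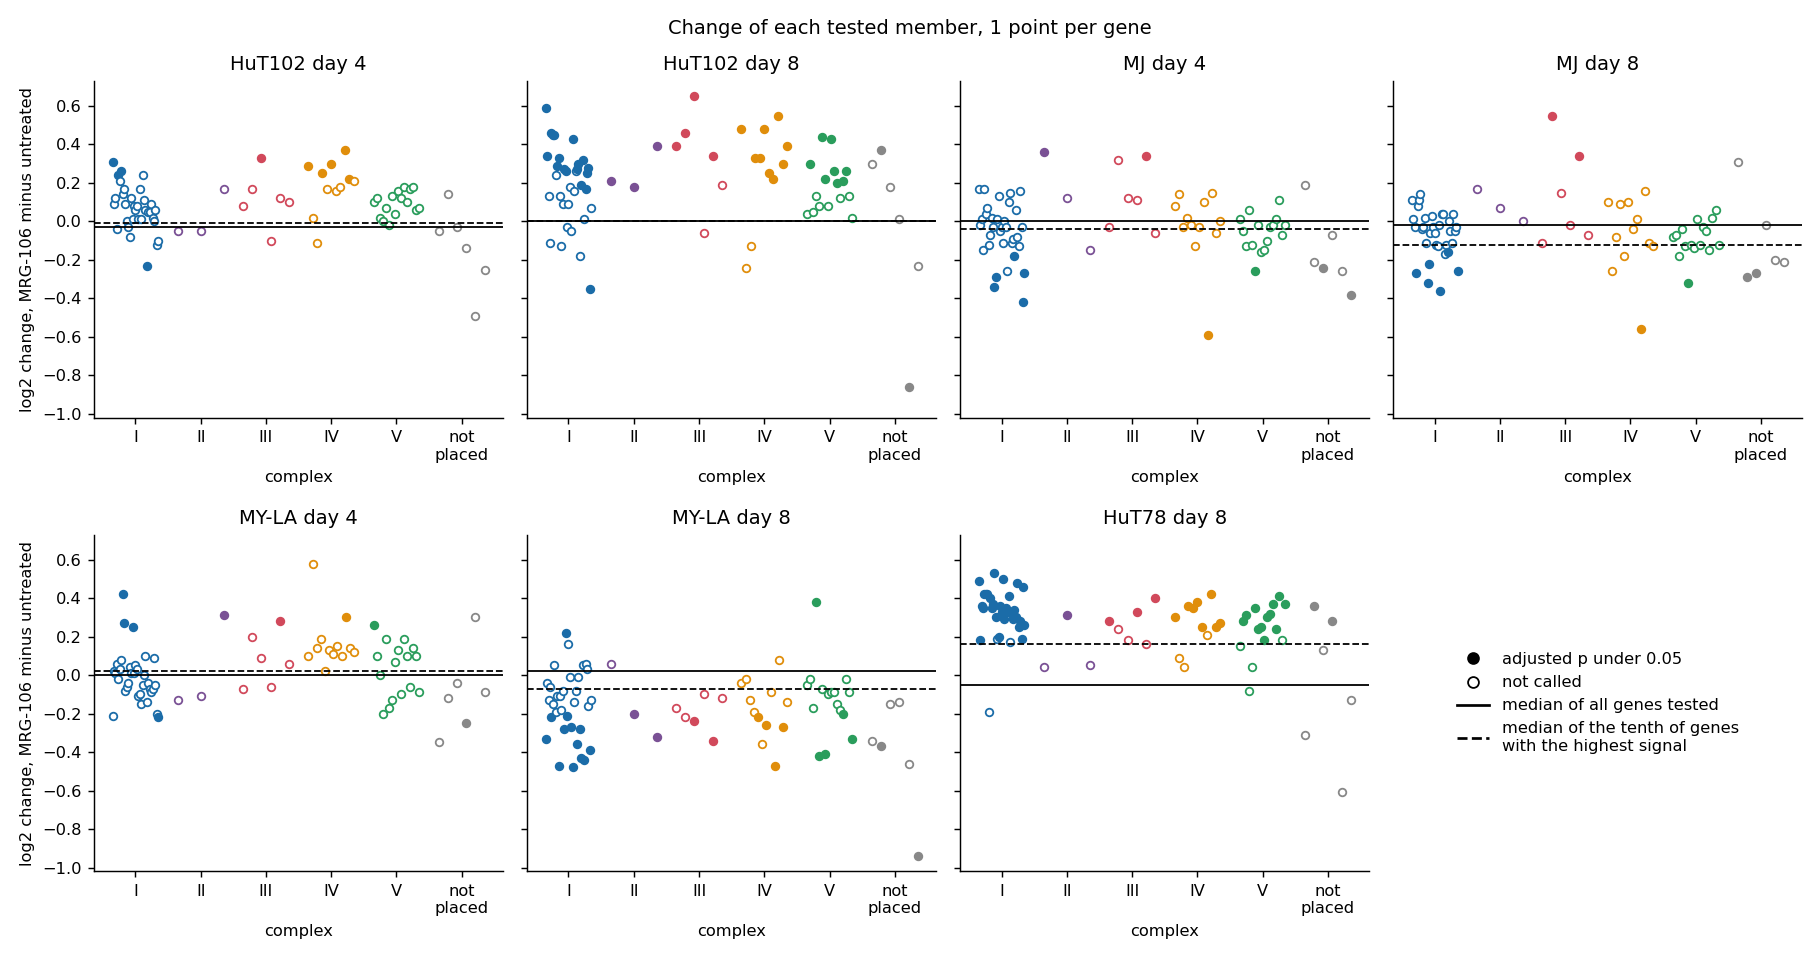
Log2 change with MRG-106 of each tested member (vertical axis) by complex (horizontal axis) in the 7 comparisons, 1 point per gene; filled points passed an adjusted p of 0.05. The solid line is the median of all genes tested and the dashed line that of the tenth with the highest signal. In HuT78 the dashed line lies at 0.16, so highly expressed genes as a whole read higher there.

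MY-LA cells at day 8 moved the other way. Of 76 members, 26 were lower and 2 higher (36.8%), while all genes were called in 42.2%, 18.5% lower and 23.7% higher. The members' median change was -0.15, against 0.02 for all genes and -0.07 for the tenth with the highest signal, in which 20 of the 55 members were lower and 2 higher. The lower genes were 12 of 33 in complex I, 2 of 3 in complex II, 2 of 6 in complex III, 4 of 12 in complex IV and 4 of 16 in complex V. The mean over the 68 expressed subunits was 13.24, 13.47, 13.58 and 13.44 untreated and 13.22, 13.32, 13.27 and 13.29 with MRG-106, and these ranges overlapped through untreated array 1. The upper quartiles of those arrays were 418, 402, 384 and 393 untreated and 419, 403, 412 and 413 with MRG-106. With the upper quartile as a covariate 19 members were lower and 5 higher (median -0.06), after quantile normalisation 22 and 5 (median -0.10), and with a common upper quartile 27 and 1 (median -0.20). Over all genes the median was 0.01 after quantile normalisation and -0.03 with a common upper quartile. Leaving out untreated array 3 left 18 lower, and leaving out untreated array 1 gave 36.

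SDHAF4, which protects the flavinated SDHA during assembly of complex II, fell most. It read 1176, 1406, 1330 and 1442 untreated and 766, 655, 649 and 683 with MRG-106 (log2 change -0.94 ± 0.10, limma adjusted p = 1.38e-11). The treated values were all below the untreated ones. The complex I subunit NDUFB5 went from 9284, 11726, 13150 and 11326 to 7901, 8179, 8208 and 8027 (-0.48 ± 0.09, limma adjusted p = 1.17e-05), and the complex IV subunit COX7A2 from 13091, 14452, 17300 and 16506 to 11282, 10543, 10387 and 11980 (-0.47 ± 0.09, limma adjusted p = 3.71e-05). Neither overlapped.

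Among catalytic and accessory subunits, NDUFS1, the largest iron-sulfur subunit of complex I, fell from 4004, 4237, 4202 and 4045 to 2982, 3205, 2923 and 3144 (-0.43 ± 0.06, limma adjusted p = 9.93e-09), with a narrow spread in both groups and no overlap. NDUFS4, an accessory subunit whose loss impairs the assembly of complex I, fell by -0.44 ± 0.09, ATP5MC2, a further c-subunit gene, by -0.41 ± 0.08, and ATP5F1E, the epsilon subunit of the ATP synthase, by -0.42 ± 0.08. The 2 members that rose were ATP5F1D, the delta subunit, and NDUFB10, a membrane-arm subunit of complex I. ATP5F1D read 5495, 5551, 5685 and 5505 untreated and 6644, 7765, 7456 and 7100 with MRG-106 (0.38 ± 0.11, limma adjusted p = 0.0042), without overlap. NDUFB10 changed by 0.22 ± 0.07 (limma adjusted p = 0.014) with overlapping arrays, and was not called with a common upper quartile.

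At day 4, MY-LA showed 7 members higher and 2 lower of 76 (11.8%), with 26.4% of all genes called, 13.4% higher and 13.0% lower, and a members' median of 0.02. That split turned with the scaling: 9 were higher and 10 lower after quantile normalisation and again with the covariate, and 6 higher and none lower with a common upper quartile. Left-out arrays gave between 3 and 10 higher members. NDUFA5, a subunit of the peripheral arm of complex I, read 2901, 3176, 3736 and 3282 untreated and 4042, 4023, 4514 and 4965 with MRG-106 (0.42 ± 0.12, limma adjusted p = 0.00677). A second NDUFA5 probe set changed by -0.07 and was not called. SDHD went from 3752, 3676, 3892 and 4164 to 4582, 4657, 4501 and 5568 (0.31 ± 0.10, limma adjusted p = 0.0107), and COX7B from 12261, 14274, 13714 and 13494 to 16729, 15715, 16497 and 17191 (0.30 ± 0.09, limma adjusted p = 0.0126). None of these 3 genes had overlapping groups, but SDHD was not called without MRG-106 array 4 (0.24, limma adjusted p = 0.0732) and COX7B not without untreated array 1 (0.26, limma adjusted p = 0.0597). SDHAF2, an assembly factor that attaches flavin to SDHA, changed by -0.25 ± 0.09 (limma adjusted p = 0.0344) with overlapping arrays, and was not called with no filter, with a common upper quartile, in a fit on these arrays alone, or with any 1 of 4 arrays left out (-0.16 without MRG-106 array 2 or untreated array 3). The second gene lower was NDUFV3, an accessory subunit of the NADH module, at -0.22 ± 0.07 (limma adjusted p = 0.0112).

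The change with MRG-106 in MY-LA differed between the days in 18 of 76 members, 17 of them lower at day 8, with 17.3% of all genes called. Complex IV held 5 of the 18 and complex I held 7. SDHAF4 had the greatest difference, -0.85 ± 0.14. SDHD differed by -0.63 ± 0.14 and UQCRC2 by -0.62 ± 0.10, and both were called higher at day 4, SDHD with the limit above, and lower at day 8. UQCRC2 read 12043, 12298, 11181 and 12777 untreated and 12684, 14917, 14405 and 16696 with MRG-106 at day 4, but 11523, 13754, 13490 and 13426 untreated and 10492, 9861, 10318 and 10372 with MRG-106 at day 8. At day 8 every treated array was below the untreated ones, while at day 4 the lowest treated array lay within the untreated range, and another UQCRC2 probe set changed by only 0.02 at day 4 and by -0.26 at day 8. ATP5F1D was the member with a higher change at day 8, by 0.58 ± 0.16. Without MRG-106 array 4 of day 4, 9 members were called. Untreated MY-LA cells also differed between the days in 7 members, 6 higher at day 8 and SDHA lower by -0.32 ± 0.07, with 13.2% of all genes called. This count was 2 without untreated array 3 of day 8 and 27 without untreated array 1 of day 8. COX7A2, NDUFS1, SDHAF4 and ATP5F1E were among the 6, so their fall with MRG-106 at day 8 was measured against a raised untreated level.

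The changes in HuT102 and MY-LA at day 8 were compared directly. In 45 of 75 members the change was higher in HuT102, and in none lower, with 39.3% of all genes called. The median difference was 0.35. The covariate fit called 58 members and the common upper quartile 32, again in the same direction. Of the 42 members that rose in HuT102, 18 (42.9%) fell in MY-LA, which was 69.2% of the 26 that fell there. Over all genes tested in both, 19.9% of those higher in HuT102 were lower in MY-LA, and 20.9% of those lower in MY-LA were higher in HuT102. They were ATP5MC2, ATP5PB, COX6A1, COX6B1, COX7A2, COX7A2L, COX7C, NDUFA1, NDUFA7, NDUFA13, NDUFB1, NDUFB5, NDUFB8, NDUFS1, SDHC, SDHD, UQCRB and UQCRC2. The difference was greatest for NDUFB5 (0.91 ± 0.12) and NDUFA1 (0.91 ± 0.16), followed by UQCRB (0.89 ± 0.14) and NDUFA7 (0.80 ± 0.13). NDUFB5 read 10043, 9274, 9870 and 11349 untreated in HuT102 and 13325, 13730, 14895 and 12680 with MRG-106, the reverse of its order in MY-LA. HuT102 and MY-LA carry label numbers of separate series. Each change with MRG-106 was measured within 1 series. A difference between these lines, in untreated level or in the change, still cannot be told apart from the series. The label numbers alternate between the arms in HuT102 and run in blocks by arm in MY-LA.

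**Figure D4:**
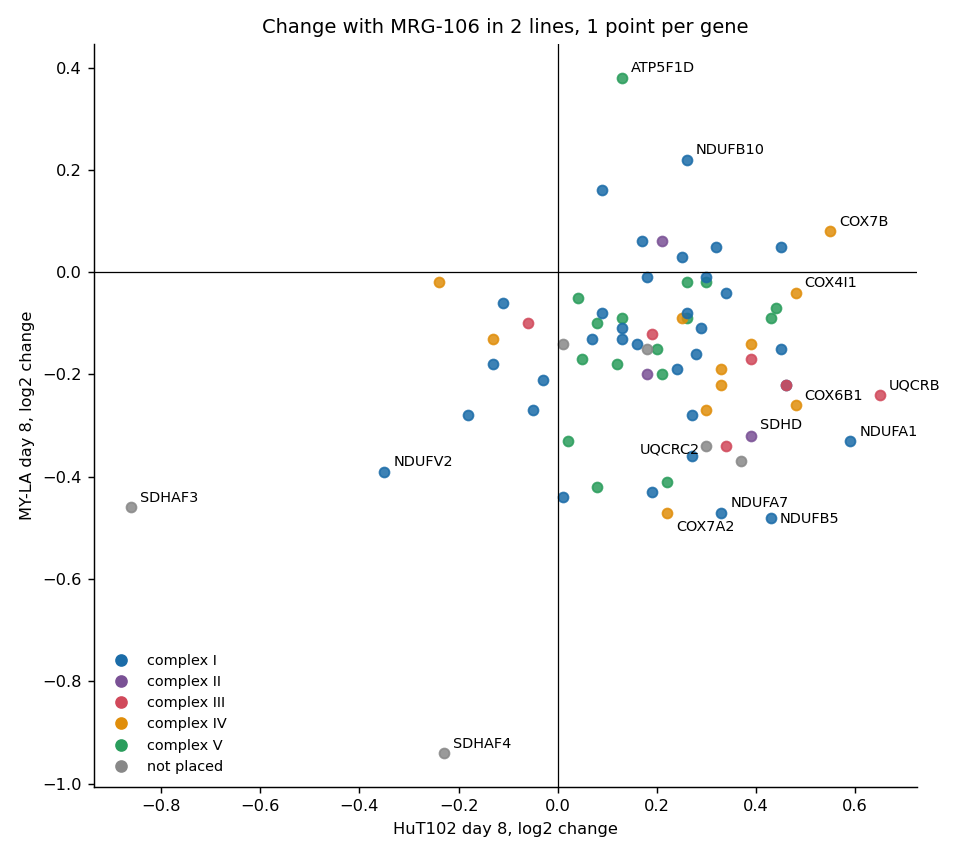
Log2 change with MRG-106 at day 8 in HuT102 (horizontal axis) and MY-LA (vertical axis), 1 point per member tested in both, coloured by complex. Most points lie right of 0 and below 0; UQCRB (0.65 and -0.24), NDUFA1 (0.59 and -0.33) and NDUFB5 (0.43 and -0.48) lie far to the lower right, while NDUFV2 (-0.35 and -0.39) was called lower in both lines.

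MJ cells showed a smaller share of calls among these genes than over all genes, and more of the members' calls were lower than higher. At day 4, 2 of 76 members were higher and 9 lower (14.5%), with 27.6% of all genes called, 13.3% higher and 14.3% lower. At day 8, 2 were higher and 10 lower (15.8%), with 34.1% of all genes called, 15.4% higher and 18.7% lower. The members' medians were -0.03 and -0.05, those of the tenth of genes with the highest signal -0.04 and -0.12. The counts moved with the handling of the arrays: quantile normalisation gave 6 higher and 13 lower at day 4 and 7 and 14 at day 8, and the covariate fit 22 higher and 7 lower at day 4 and 15 and 7 at day 8. A fit on the MJ arrays of day 8 alone called 6 higher and 20 lower. Beside the upper quartile, the ratio of 3′ to 5′ GAPDH signal was 0.019 higher with MRG-106 at day 8 without overlap, and its part in these calls was not tested.

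COX7A2, the widely expressed form of a complex IV subunit, fell most at both times. It read 14953, 15777, 13555 and 14568 untreated and 9674, 10419, 9469 and 9611 with MRG-106 at day 4 (-0.59 ± 0.09, limma adjusted p = 1.14e-06). At day 8 it read 14016, 13656, 13985 and 14842 untreated and 9393, 8982, 9672 and 10183 with MRG-106 (-0.56 ± 0.09, limma adjusted p = 1.61e-06). The 2 days gave almost the same values, far apart between the groups. COX7A2 was the single complex IV subunit called in MJ, and it also differed between the untreated lines, at 25535 in HuT102 against 14125 in MJ at day 8 (0.85 ± 0.09, limma adjusted p = 1.21e-11).

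The few members that rose in MJ were UQCRC2 on both days, SDHA at day 4 and UQCR11 at day 8; UQCRC2 was the 1 of 6 complex III subunits called at day 4, and 2 of 6 were called at day 8. UQCRC2 read 13737, 13982, 13649 and 14554 untreated and 17538, 18248, 17467 and 17324 with MRG-106 at day 4 (0.34 ± 0.07, limma adjusted p = 0.000117). At day 8 it went from 12242, 12483, 13112 and 13801 to 15973, 16408, 16439 and 16575 (0.34 ± 0.07, limma adjusted p = 6.32e-05). On both days every treated array was above every untreated one, and a second UQCRC2 probe set rose by 0.32 and 0.47. SDHA rose at day 4, from 4096, 4710, 4291 and 3767 to 4859, 5491, 5983 and 5334 (0.36 ± 0.07, limma adjusted p = 5.36e-05). At day 8 its change was 0.17 and missed the threshold (limma adjusted p = 0.0503). UQCR11, a small complex III subunit, rose at day 8, from 10034, 8941, 10706 and 11449 to 13830, 14813, 16856 and 14663 (0.55 ± 0.16, limma adjusted p = 0.00461), but its second probe set read -0.32 and was not called.

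The other MJ members that fell lay mostly in complex I. At day 4, NDUFV2 went from 7438, 9511, 6973 and 8995 to 5698, 5979, 6719 and 6052 (-0.42 ± 0.10, limma adjusted p = 0.000959). SDHAF4 went from 1225, 1238, 1176 and 1310 to 947, 1074, 938 and 838 (-0.38 ± 0.10, limma adjusted p = 0.00169). At day 8, NDUFB6, a membrane-arm subunit, went from 5637, 5587, 5541 and 5833 to 4172, 4417, 4346 and 4613 (-0.36 ± 0.10, limma adjusted p = 0.00432). The treated arrays were below the untreated ones for these 3 genes. NDUFA9, which sits near the quinone site of complex I, fell by -0.32 ± 0.09 at day 8 (limma adjusted p = 0.00334). Between the 9 and 10 lower genes of the 2 days, 7 were shared: ATP5MC1, COX7A2, NDUFA9, NDUFAB1, NDUFS1, NDUFV3 and SDHAF1. How many of all genes were lower on both days was not computed. For NDUFV3 the chosen probe set fell by -0.26 at day 8 while another rose by 0.57 ± 0.14, so the direction for that gene is uncertain. No member's change differed between the days under limma (0 of 76, 1 at an unadjusted p under 0.05), with 1.34% of all genes called. Untreated MJ cells of the 2 days likewise differed in 0 of 76 members under limma, 2 at an unadjusted p under 0.05, with 1.63% of all genes called; the fit over every probe set called 1 in the untreated comparison, and the fit on the MJ arrays alone called 1 in the change.

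**Figure D5:**
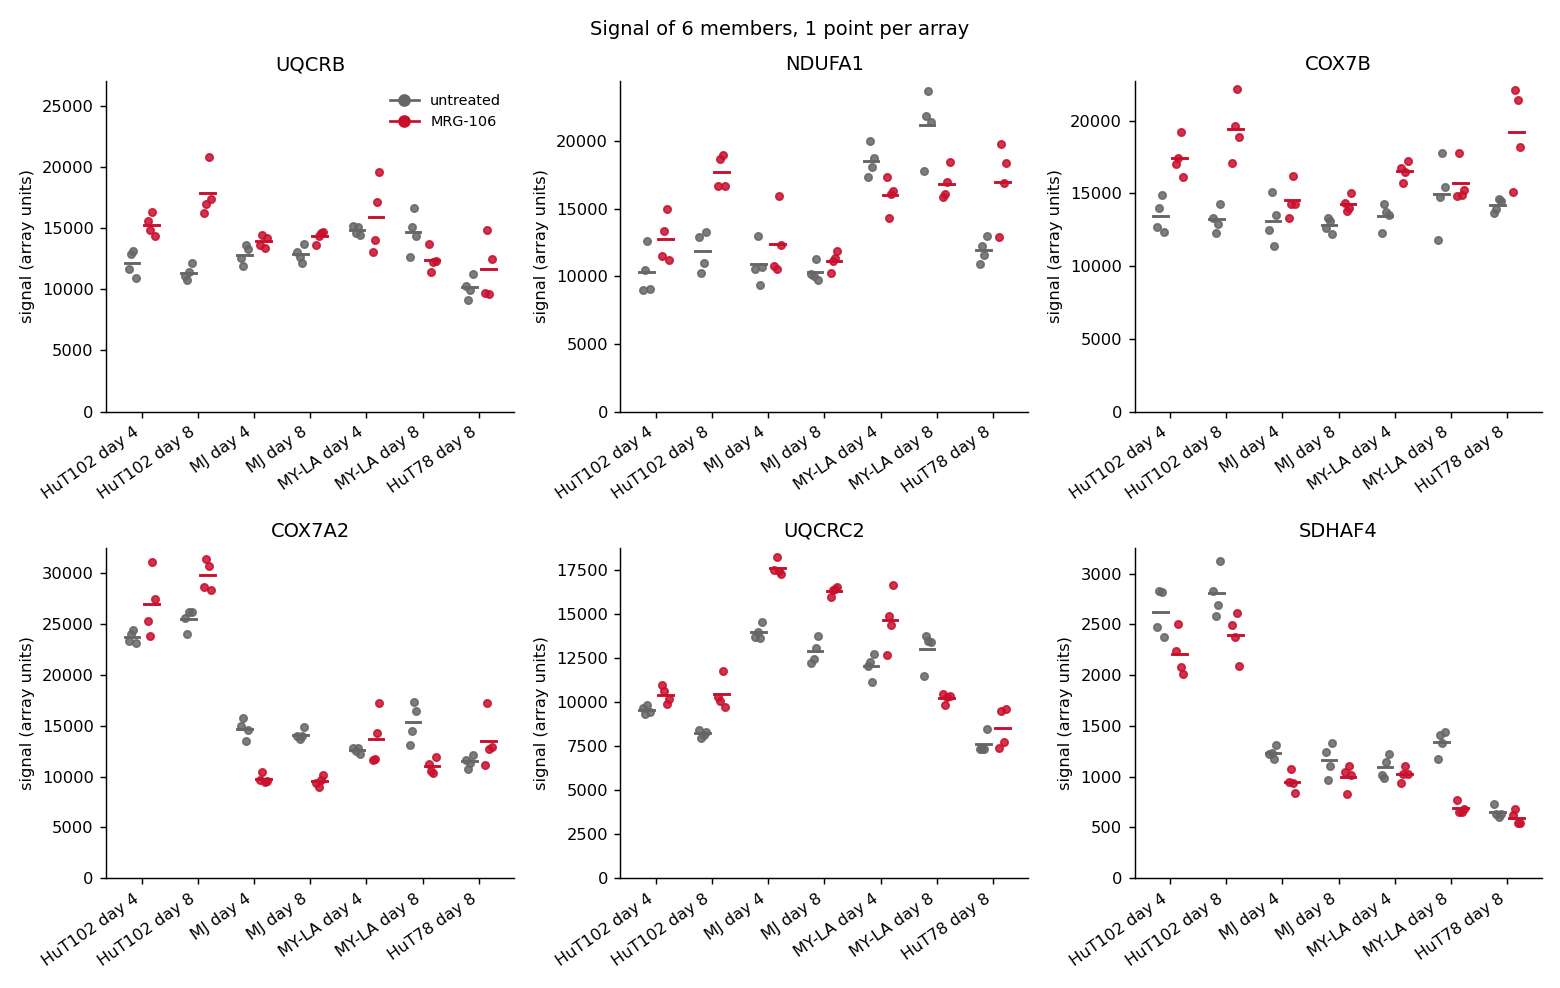
Signal (vertical axis, array units) of 6 members on every array for the 7 line and day pairs, untreated in grey and MRG-106 in red, with means of 4 arrays as bars. UQCRB rose in HuT102, COX7A2 was lower with MRG-106 in MJ at both times, UQCRC2 was higher in MJ and lower in MY-LA at day 8, and SDHAF4 fell in MY-LA at day 8.

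In HuT78, 56 of 75 members were higher with MRG-106 and none lower (74.7%; limma, 61 at an unadjusted p under 0.05), with 22.0% of all genes called, 10.6% higher and 11.4% lower. Among complex I subunits 30 of 33 were higher. The count depended on the 3 MRG-106 arrays that stood apart and on the handling of the arrays. With MRG-106 array 1 alone against the untreated arrays, limma called 0 of 75 members (0 at an unadjusted p under 0.05; the lone array is assumed to vary like the other groups), and their median change was 0.04 in place of 0.30. With the upper quartile as a covariate limma called 0 of 75 (4 at an unadjusted p under 0.05) with a median of -0.01. Quantile normalisation left 40 higher and 1 lower with a median of 0.14, while a common upper quartile gave 64 higher and none lower with a median of 0.45. Over all genes the median was -0.05 in the main fit, 0.00 after quantile normalisation and 0.10 with a common upper quartile. A fit on the 8 HuT78 arrays alone kept the members' median at 0.30 but called 0 of 75 (limma, 53 at an unadjusted p under 0.05). The tenth of genes with the highest signal had a median of 0.16. Of its 1096 genes, 446 were higher and 44 lower, and of its 55 members 44 were higher and 0 lower.

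NDUFA9 shows the pattern. It read 3777, 3702, 3355 and 3682 untreated and 3912, 5598, 5973 and 5741 with MRG-106 (0.53 ± 0.09, limma adjusted p = 0.000134; 0.17 and not called with the covariate). NDUFB3, a membrane-arm subunit, read 3516, 3555, 3457 and 3878 against 3791, 6162, 5620 and 5091 (0.50 ± 0.11, limma adjusted p = 0.00121; 0.09 with the covariate). NDUFA1 read 10948, 12222, 11569 and 12987 against 12884, 19776, 16920 and 18363 (0.49 ± 0.12, limma adjusted p = 0.00209; 0.05 with the covariate). In each gene MRG-106 array 1 lay close to or among the untreated arrays and the other 3 lay above them. The 34 members called higher in both HuT102 at day 8 and HuT78 are 81.0% of the HuT102 and 60.7% of the HuT78 list. The 81.0% lies near the 74.7% of all tested members called higher in HuT78. The matching share over all genes was not computed, and the 34 members carry the same limit.

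Across the 4 lines, the change at day 8 differed in 65 of 75 members by an F-test in limma, against 65.1% of all genes, and in 49 of 76, against 55.2% of all genes, with HuT78 represented by MRG-106 array 1. Untreated levels at day 8 differed over the 4 lines in 68 of 75 members, against 91.2% of all genes. HuT102 was above MJ in 10 of 76 members and below in 20, with 57.8% of all genes called, and MY-LA above HuT78 in 49 of 75 and below in 3, with 75.1% of all genes called (30 and 14 with the upper quartile as a covariate). The greatest differences in these 2 line comparisons were those of ATP5MC2 (1.43 ± 0.08), NDUFS4 (1.41 ± 0.09) and NDUFA13 (1.35 ± 0.08), all higher in MY-LA than in HuT78, and SDHAF4, higher in HuT102 than in MJ by 1.27 ± 0.10. Over the 6 treatment comparisons without HuT78, 19 of the 75 members tested in each (25.3%) were called in both directions, 42 in 1 direction only and 14 (18.7%) in none, against 20.1%, 57.8% and 22.1% of all genes tested in each. With HuT78 counted, 31 of the 82 members were called in both directions, 40 in 1 and 11 in none. Of those 11, 6 were never tested. No share over all genes was computed for these counts, and their HuT78 calls depend on the arrays that stood apart. COX7B and NDUFB10 were each called higher in 4 of the 7 comparisons, HuT78 among them, and lower in none. SDHAF4 and SDHAF1 were each called lower in 2 and higher in none.

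Genes that work beside the subunits were counted from lists fixed with earlier results known. Of 15 tested carriers and further subunits, 4 were higher and 2 lower in HuT102 at day 8, near the 40.3% of all genes called, and 1 higher and 8 lower in MY-LA at day 8, where 42.2% of all genes were called and 18.5% were lower. CYC1, cytochrome c1 of complex III, was among those lower in MY-LA (-0.31 ± 0.08), as was ATP5IF1, the inhibitor of the ATP synthase (-0.40 ± 0.08). NNT, which makes mitochondrial NADPH, rose in HuT102 at day 8 (0.48 ± 0.13). Probe sets were available for 7 mitochondrially encoded subunit genes. At day 8 ND4 was the 1 called in HuT102, higher by 0.25 ± 0.07, and ND6 the 1 called in MY-LA, higher by 0.60 ± 0.20.

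Of the 52 assembly factors tested at day 8 in HuT102, 10 were higher and 12 lower, and of 51 tested in MY-LA, 13 were higher and 13 lower, against 40.3% and 42.2% of all genes called in either direction. COX16 (0.95 ± 0.11) rose and COX18 (-0.78 ± 0.09) and COX20 (-0.74 ± 0.12) fell in MY-LA at day 8, all 3 acting in the assembly of complex IV. In MJ 1 factor was higher and 18 of 52 lower at day 8, where 18.7% of all genes were lower, among them COA1 (-0.80 ± 0.08). The tricarboxylic acid cycle list had 3 higher and 3 lower of 15 in HuT102, 6 lower and none higher in MJ, and 2 higher and 5 lower in MY-LA at day 8, beside 40.3%, 34.1% and 42.2% of all genes called. PDHB (-0.60 ± 0.08) fell and PDHA1 (0.44 ± 0.07) rose in MY-LA, both subunits of pyruvate dehydrogenase.

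Of 16 regulators of mitochondrial biogenesis tested at day 8, 1 was higher and 5 lower in HuT102, where 19.0% of all genes were higher and 21.3% lower. In MY-LA 9 were higher and 3 lower, where the shares over all genes were 23.7% and 18.5%. PPARGC1B, a coactivator of respiratory genes, rose in both, by 1.40 ± 0.19 and 1.12 ± 0.19. It was the 1 regulator higher in HuT102, where the 5 lower included MYC (-0.70 ± 0.09) and TFB1M (-0.57 ± 0.09). PPARGC1B was lower in MJ at day 4 (-0.51 ± 0.19). In MJ at day 8, TFAM, which packages and transcribes mitochondrial DNA, fell by -0.64 ± 0.07. Of 22 glycolysis genes, 11 were lower and 1 higher in HuT102 at day 8, and 8 lower and 2 higher in MY-LA, beside the same shares over all genes. PFKFB4, which sets the level of the activator of phosphofructokinase, fell by -2.03 ± 0.23 in HuT102 and -2.89 ± 0.23 in MY-LA. ALDOC, an aldolase, fell by -1.87 ± 0.13 and -1.72 ± 0.13. In MJ at day 8, 6 of the 22 were higher and 3 lower, where 15.4% of all genes were higher and 18.7% lower. There PFKFB4 rose by 0.68 ± 0.23, while SLC2A3 fell by -0.98 ± 0.18.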

How the data were processed

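Total RNA was hybridised as biotin-labelled cRNA to 56 Affymetrix arrays. The deposited values are a linear intensity (signal) for each of 54675 probe sets, made by the authors with MAS5 per the submitters' processing notes; the scaling shows in trimmed means of 500.1. Of these probe sets, 41091 had 1 gene symbol in the platform annotation, 1801 several and 11721 none, besides 62 controls; only those with 1 symbol were named.

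Genes were read by the probe set with the highest mean, as log2(signal + 16), and tested with limma 3.58.1 (R 4.3.3) over all 14 groups with an intensity trend, keeping genes whose mean over the compared arrays reached the platform median (6.492 on that scale). Calls are Benjamini-Hochberg adjusted p-values under 0.05 over all genes. A fold change on this scale understates that of low genes. The fit was tested on simulated data. Log2 changes are MRG-106 minus untreated, ± SE of the fit. Complex means use subunits with a mean signal of 423.5 or more. Precision is limited by having 4 arrays per group.

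The members and lists were chosen with earlier results of these data known. Any member could be named; array values were given by rule for up to 3 called rises and 3 called falls of largest size per treatment comparison and for isoforms, and up to 3 called genes per other list were named. Array values of further members (NDUFS1, UQCRC2, ATP5MC1 and NDUFB5 in HuT102) were added after seeing them. Alternatives were other offsets, filters, scalings and fits, left-out arrays and, added after seeing the data, the upper quartile as a covariate and HuT78 with MRG-106 array 1 alone. Tables and promoters were handled in Python 3.11.15 with pandas 2.3.3.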

Additional observations from a re-analysis of the deposited data

Results flagged for a closer look

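In 4 of 134 groups of 4 arrays looked at, 1 array lay apart from the other 3 by Dixon's criterion, which chance meets in about 5% of groups. Untreated HuT78 array 4 had a mean complex I level of 12.64, against 12.51 to 12.52 on the others. MRG-106 array 3 of HuT102 at day 4 had a mean complex IV level of 14.25, against 14.10 to 14.12, and a NDUFC1 signal of 7764, against 6772 to 6928. MRG-106 array 4 of MY-LA at day 4 had an SDHD signal of 5568, against 4501 to 4657.

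The change with MRG-106 differed between groups by its own test in 1 of 75 members between the days in HuT102, against 7.20% of all genes. Between the days in MY-LA it differed in 18 of 76, against 17.3%. Between HuT102 and MY-LA at day 8 it differed in 45 of 75, against 39.3%. Over the 4 lines at day 8 it differed in 65 of 75, against 65.1%, and that count includes the HuT78 arrays that stood apart.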

How the results depend on the processing

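No paired analysis was made, because the labels give no replicate number shared by the groups. Counts of called members (limma, adjusted p under 0.05) that moved by over 1.5 times were as follows, and the cause was not tested. Without a filter on low signal, HuT102 at day 4 gave 6 and untreated MY-LA between days 3. Quantile normalisation gave 19 in MJ at day 4, 21 in MJ at day 8, 19 in MY-LA at day 4, 10 for the day difference of HuT102, 7 for untreated HuT102 between days and 15 for untreated MY-LA. A common upper quartile gave 3 in HuT102 at day 4, 24 in HuT102 at day 8 and 0 for its day difference (1 at an unadjusted p under 0.05). Fitting only the arrays compared gave 26 in MJ at day 8, 5 in MY-LA at day 4, 0 in HuT78 (53 unadjusted), 1 for the day difference of MJ and 5 for untreated HuT102. Testing every probe set on its own gave 15 in MY-LA at day 4, 3 for the day difference of HuT102, 5 for untreated HuT102 and 1 for untreated MJ. The upper quartile as a covariate, added after seeing the data, gave 39 in HuT102 at day 4, 29 and 22 in MJ at days 4 and 8, 19 in MY-LA at day 4, 0 in HuT78 (4 unadjusted), 25 and 1 for the day differences of HuT102 and MJ, and 7 and 1 for untreated HuT102 and MJ. HuT78 with MRG-106 array 1 alone, also added, gave 0 (0 unadjusted).

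With single arrays left out, the counts ran from 5 to 12 in HuT102 at day 4, 36 to 44 in HuT102 at day 8, 10 to 11 and 11 to 13 in MJ, 8 to 12 and 21 to 38 in MY-LA, and 38 to 63 in HuT78. They ran from 1 to 2 for the day difference of HuT102, 9 to 23 for that of MY-LA, 1 to 3 for untreated HuT102, 2 to 27 for untreated MY-LA and 36 to 51 for HuT102 against MY-LA. Over 546 settings of the 32 member and comparison pairs named by rule, 504 kept the call. In 42 the direction held without the call, and in 0 it changed. Of the 32 pairs, 13 lost the call in some setting, 11 of them in a setting other than leaving out 1 array. The pairs were chosen as the largest called changes, so these counts do not test their direction. Another probe set can differ in sign, as for UQCR11 in MJ at day 8 (0.55 and -0.32, the second not called). Genes near background were not tested.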
